A study of Mus musculus with 11 samples.

Results

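The genes described here encode the proteins of the cytosolic ribosome. They were taken by symbol from the deposited DamID table: a symbol of Rpl or Rps followed by a digit, or Rplp0, Rplp1, Rplp2 or Rpsa, without the S6 kinases (Rps6k), Rps19bp1 and pseudogenes ending in -ps. The rule found 90 of the 21534 gene regions in the table, which carried 87 different symbols. DamID maps where a protein sits on DNA: the bacterial DNA adenine methyltransferase (Dam) is fused to lamin B1 (LMNB1), a filament protein of the nuclear lamina, and adenine methylation then accumulates on DNA near the lamina. Untethered Dam, which methylates whatever DNA it can reach, serves as the control. The cells were primary mouse oligodendrocyte precursor cells from the cortex of wild-type C57BL/6 mice at postnatal day 7. A lentivirus delivered Dam-LMNB1 or Dam, and after 1 day the cells spent 72 h in proliferation medium (PF in the labels, called OPC here) or in medium for differentiation to oligodendrocytes (T3, called OL here). Dam-LMNB1 was measured in 3 libraries per condition, which the labels number 8, 9 and 10 for OPC and 18, 19 and 20 for OL. Each was scored by the authors against the pooled Dam libraries of the same condition, 2 for OPC and 3 for OL. No promoter or clone is named for the lentiviral constructs, and DamID scores do not check which cells a culture held. A score above 0 is read as more methylation by Dam-LMNB1 than by Dam, that is, as lamina contact, and a score below 0 as less. The Dam-LMNB1 and Dam parts of a score cannot be told apart here, and no source used here states a log base for the scores, so all differences are in score units.

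Ribosomes are built from a small 40S subunit, which holds the mRNA and its decoding centre, and a large 60S subunit, which forms peptide bonds. Their proteins are made in near-equal amounts from single-copy housekeeping genes scattered over the genome, most of them short, transcribed in every dividing cell and starting with an oligopyrimidine tract (the TOP motif) through which mTOR signalling controls their translation. A small number of paralogs are expressed in particular tissues, such as testis or muscle, and the genome also carries many retrocopies of ribosomal protein mRNAs. Housekeeping genes are textbook examples of genes that lie away from the lamina.

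By symbol and by RefSeq locus the 90 regions fell into 77 core loci, of which 31 encode 40S and 46 encode 60S proteins, and 13 paralogs and copies. Each region is the gene with flanks: 75 of 90 lay within 100 bp of the annotated gene extended 10000 bp upstream and 2000 bp downstream, so that exons, introns, UTRs and flanks share 1 value. The median width of the core regions was 15.1 kb, and the widest was 23.8 kb. In Rplp1 the gene itself filled 9.28% of its region, in Rpl19 53.8%. RefSeq promoter windows (GRCm38.p6, 250 bases before to 50 after the annotated start) matched 67 of the 90 regions, 57 core loci and 10 paralogs and copies. The letters CTCTTTC, a pyrimidine run like that of TOP mRNAs, stood on either strand in 29.8% of the core windows, against 8.01% of 27025 promoter windows of the same length. CCGGAAG, the core recognised by ETS factors, stood in 40.4% of core windows against 9.12% of all. AAGATGG, a YY1-like motif that can overlap CCGGAAG by its first bases, stood in 8 of 57 core windows against 6.48%. GATC, the site that Dam methylates, was in 29.8% of core windows and in 48.0% of all windows. None of the 10 matched paralog and copy windows held CTCTTTC, and 2 held CCGGAAG. The following 4 core promoters, each 100 bases before and 20 after the annotated start, were chosen as examples: Rpl35, at -2.40 ± 0.18 in OPC and -2.23 ± 0.17 in OL, shows the pyrimidine start, Rps12 lies among regions that score above 0, Rplp0 rose most in OL, and Rpl41 had the largest fall. Capitals mark CTCTTTC or CCGGAAG, and none of the 4 windows holds GATC.
Rpl35 promoter, chr2:39005112-39005231, minus strand: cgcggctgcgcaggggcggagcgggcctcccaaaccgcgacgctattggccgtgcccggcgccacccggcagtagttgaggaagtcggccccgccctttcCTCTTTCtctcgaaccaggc
Rps12 promoter, chr10:23787190-23787309, minus strand: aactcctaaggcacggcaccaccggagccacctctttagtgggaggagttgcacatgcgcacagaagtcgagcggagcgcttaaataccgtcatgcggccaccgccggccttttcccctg
Rplp0 promoter, chr5:115559367-115559486, plus strand: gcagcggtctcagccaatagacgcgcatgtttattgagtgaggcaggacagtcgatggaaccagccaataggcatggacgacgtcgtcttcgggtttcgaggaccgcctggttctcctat
Rpl41 promoter, chr10:128549149-128549268, minus strand: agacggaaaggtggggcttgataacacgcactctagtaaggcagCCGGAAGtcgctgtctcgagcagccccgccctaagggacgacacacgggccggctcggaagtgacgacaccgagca

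All 77 core ribosomal protein genes scored below 0 in all 6 libraries, with no exception in either condition. In OPC, 86 of the 90 regions were below 0 by limma's test over all regions (adjusted p under 0.05), where 71.4% of all regions were below 0, and 3 were above 0, where 25.5% of all regions were. In OL the counts were again 86 and 3, against 70.9% and 25.9% of all regions. The 3 above 0 were Rpl10l, Rpl39l and Rps4l in both conditions, none of them a core gene, and the copy of Rpl29 on chromosome 1 passed neither test. The median score of the core genes was -2.26 in OPC and -2.0 in OL, while the medians of all regions were -1.54 and -1.47. The 2 subunits had close medians, with OPC values of -2.27 for 40S and -2.25 for 60S genes and OL values of -1.94 and -2.01. Per library, the core median ran from -2.27 to -2.25 in OPC and from -2.05 to -1.95 in OL.

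**Figure D1:**
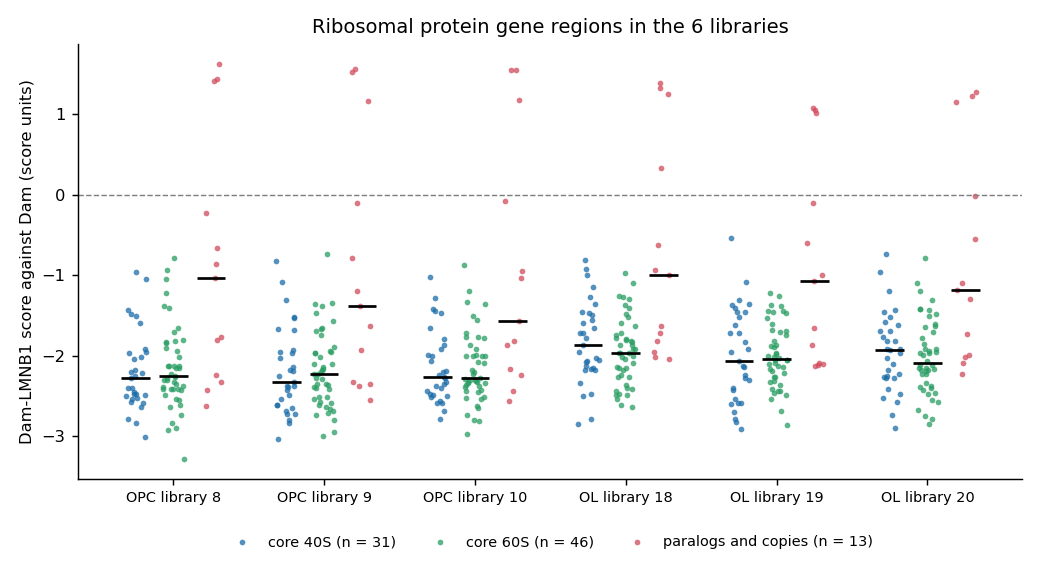
Score of Dam-LMNB1 against Dam (score units, vertical axis) for each ribosomal protein gene region in each of the 6 libraries (horizontal axis); points are regions, in blue 31 core 40S loci, in green 46 core 60S loci and in red 13 paralogs and copies, and the short black lines are group medians. Every blue and green point lies below 0, and in each library 3 red points, those of Rpl10l, Rpl39l and Rps4l, lie above 1.

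Among the 40S genes, the lowest in OPC was Rps28, at -2.83, -3.03 and -2.79 in libraries 8, 9 and 10 in that order, and its OL scores in libraries 18, 19 and 20 were -2.85, -2.58 and -2.90. The 2 conditions overlapped. Rps15a followed at -2.81 ± 0.21 (SD, n = 3) in OPC and -2.62 ± 0.18 in OL. Rps27 on chromosome 3 stood at -2.71 ± 0.07 and -2.38 ± 0.24. Rps13 was the lowest of all core genes in OL, at -2.81 ± 0.09, after -2.55 ± 0.12 in OPC, a difference that did not pass the test (adjusted p = 0.062, limma). Its OL libraries all lay below its OPC libraries. It was called lower with the same mean and SD, quantile normalization or median centring, and without OPC library 9. No other fit that left out a library called it. Several 40S genes with roles outside the ribosome or in disease sat in the same range: Rpsa, also known as the laminin receptor precursor, at -2.30 ± 0.35 in OPC, Rps19, mutated in Diamond-Blackfan anaemia, at -2.55 ± 0.06, and Rps14, lost in the 5q deletion syndrome, at -2.58 ± 0.12. Rps27a, which encodes ubiquitin fused to a 40S protein, was higher, at -1.40 ± 0.09. The highest 40S genes were Rps20 and Rps23. Rps20 scored -0.96, -0.82 and -1.28 in OPC and -0.81, -0.54 and -0.73 in OL, so that every library was below 0 but above the core median. Rps23, a protein of the decoding centre, scored -1.05 ± 0.03 in OPC and -1.06 ± 0.09 in OL.

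The 60S genes covered a similar span. Rplp1, an acidic protein of the stalk that recruits elongation factors, had the lowest OPC score of all 90 regions, at -3.28, -3.0 and -2.97, and stood at the 0.246th percentile of all regions. Its OL scores were -2.17, -2.46 and -2.57, every one above every OPC score. Rpl9 scored -2.87 ± 0.11 in OPC, Rpl27a -2.78 ± 0.03 and Rpl23 -2.69 ± 0.19. The other stalk genes lay closer to the core median: Rplp2 at -2.44 ± 0.09 and Rplp0, the scaffold of the stalk, at -2.19 ± 0.06. Rpl5 and Rpl11, which bind Mdm2 together with 5S rRNA when ribosome assembly fails, differed, at -1.74 ± 0.04 and -2.57 ± 0.15. At the upper end were Rpl24 at -1.37 ± 0.33, Rpl38, known for its part in translating Hox mRNAs, at -1.32 ± 0.10, and X-linked Rpl36a. Rpl36a was the highest core gene in OPC, at -0.79, -0.74 and -0.87, and scored -1.29, -1.37 and -0.79 in OL. Even this gene was below 0 in every library, and its 2 conditions touched at library 20.

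The core genes lay on 19 chromosomes. Of 14 core genes on chromosome 7 the median OPC score was -2.44, where all 1994 regions of that chromosome had a median of -1.37. The 4 on the X chromosome, Rpl10, Rpl36a, Rpl39 and Rps4x, had a median of -1.88, against -0.10 for all 842 X regions, and the 73 autosomal ones had a median of -2.27. To set each gene beside its own surroundings, the regions within 500 kb that did not overlap it were collected, a median of 20 for each core gene. In OPC 66 of 77 core genes (85.7%) scored below the median of these neighbours, with a median gap of -0.39. Among other regions below 0 in OPC the share was 57.3% and the median gap -0.10, and among those no wider than the widest ribosomal protein region the share was 55.9%. Neither set was matched to the core genes in score, so how far the low level itself accounts for their share was not tested. In OL 64 of 77 core genes scored below the median of their neighbours, and the share among other regions was not counted in OL. Of the core genes above their neighbours, Rpl31 stood farthest above, at -1.71 against -2.21, followed by Rps29 at -1.79 against -2.24. Some other region overlapped 72 of the 77, and overlapping regions share their underlying DNA.

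**Figure D2:**
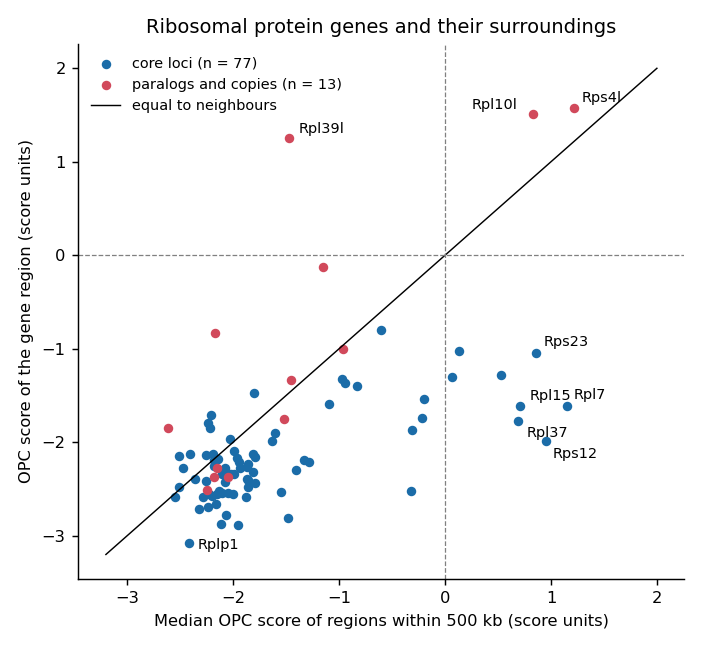
OPC score of each ribosomal protein gene region (vertical axis, score units) against the median OPC score of the non-overlapping regions within 500 kb (horizontal axis, score units); blue points are 77 core loci, red points 13 paralogs and copies, and the line marks equality. Of the blue points 66 lie under the line, and the 8 to the right of 0 all lie below -1, whereas the red points Rpl39l, Rpl10l and Rps4l lie above 1.

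In 8 core genes the surroundings themselves were above 0, and these genes were picked out after their values were seen. For Rps12, Rpl37, Rpl15, Rpl7, Rpl30, Rpl34, Rps23 and Rps20 the neighbours' median lay between 0.07 and 1.15 in OPC, and the genes' own scores lay between -1.99 and -1.02. All 8 were also below 0 in OL. Of 5189 other regions with such neighbours, 18.5% were below 0 and 7.96% below -1, and of the 2793 no wider than the widest ribosomal protein region, 12.6% were below 0. In OPC all 77 core genes were below 0 and all but Rpl36a below -1. The level of these 8 thus follows from the core class, and the shares are no test of it. The paralogs and copies Rpl10l and Rps4l also had neighbours' medians above 0 (0.83 and 1.22) and themselves scored 1.51 and 1.58 in OPC. Rps12, a 40S protein gene on chromosome 10 (region chr10:23783182-23797209, mm10), showed the widest gap in OPC. It scored -2.18, -1.93 and -1.87 in OPC and -1.72, -1.62 and -1.69 in OL. Of its 20 neighbours 18 were above 0, with a median of 0.95 in OPC and 1.23 in OL. They were mostly the trace amine-associated receptor genes, odorant receptors of the nose, such as Taar7d at 1.59 ± 0.05 and Taar6 at 1.36 ± 0.13 in OPC. The nearest of them above 0 was Vnn3, 44.3 kb away, at 0.76 ± 0.15. The regions that overlapped Rps12, Slc18b1 and a tryptophan tRNA, were below 0 as well, at -1.10 ± 0.06 and -2.12 ± 0.05.

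Rpl7 scored -1.41, -1.67 and -1.76 in OPC, beside Stau2 at 1.15 ± 0.02 (112 kb away), Sbspon at 1.21 ± 0.05 and the potassium channel gene Kcnb2 at 1.93 ± 0.02. Rpl37 scored -1.84, -1.94 and -1.51 in OPC, and the complement genes C7, 32.8 kb away, and C6 stood at 1.58 ± 0.03 and 2.02 ± 0.05. Of the 6 neighbours of Rpl37, 3 were below 0, among them the nearest, Prkaa1, 12.7 kb away, at -0.91 ± 0.16. In Rpl7 and Rpl37, each OPC library of the ribosomal protein gene was under -1.4, while the means of Stau2, Sbspon, Kcnb2, C7 and C6 were over 1. Rpl15 scored -1.65, -1.65 and -1.55 in OPC and lay between Thrb, which encodes a thyroid hormone receptor and stood at 1.43 ± 0.05, and Ube2e2 at 0.71 ± 0.06. Its closest neighbours Nr1d2, at -0.97 ± 0.10, and the overlapping Ube2e1, at -0.91 ± 0.10, were below 0. Rpl34 scored -0.93, -1.57 and -1.35 in OPC, with Etnppl at 1.57 ± 0.05 on 1 side, 87.1 kb away, but Ostc, 5.38 kb away, at -1.76 ± 0.20. Rpl30 scored -1.22, -1.36 and -1.33, and Matn2, whose region ended 0.265 kb from it, stood at 0.20 ± 0.02. These comparisons rest on few neighbours, 20 for Rps12 but 10 for Rps20, 8 for Rpl30, 6 for Rpl37, 5 each for Rpl7 and Rpl34, 3 for Rpl15 and 1 for Rps23.

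**Figure D3:**
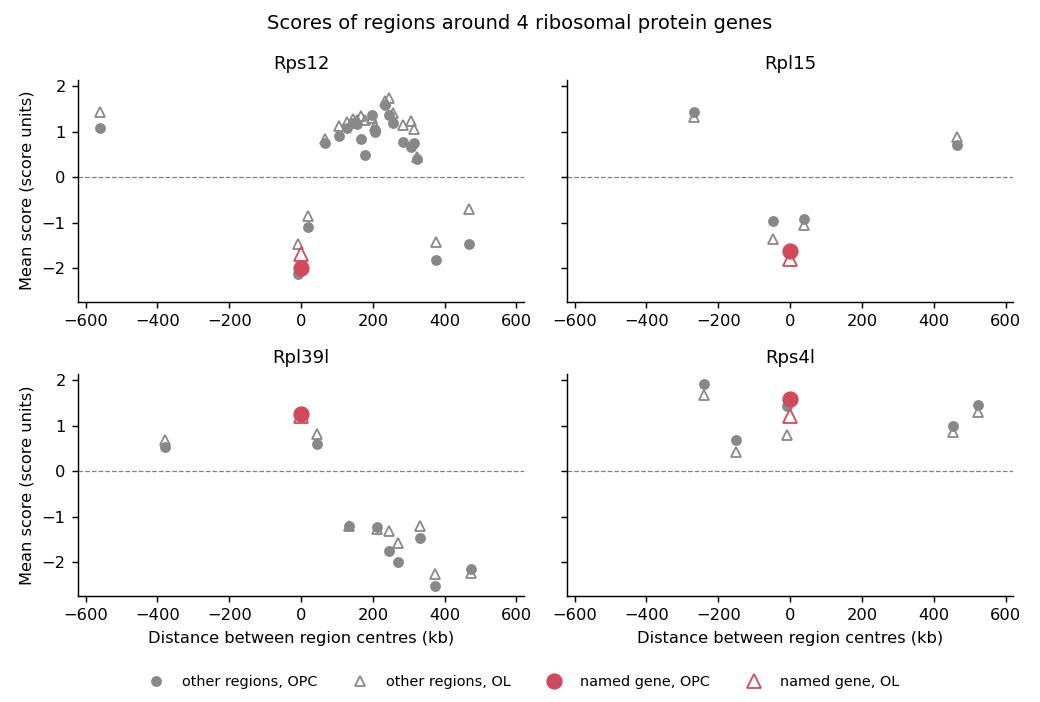
Mean scores (vertical axis, score units) of regions around 4 ribosomal protein genes against the distance between region centres (horizontal axis, kb); filled circles are OPC, open triangles OL, red the named gene and grey the other regions within 500 kb. Rps12 at -1.99 and Rpl15 at -1.61 lie below grey points that exceed 0, Rpl39l at 1.25 lies above all the grey circles around it, and the points around Rps4l at 1.58 are all above 0.

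The 13 paralogs and copies had a median of -1.33 in OPC and -1.19 in OL. Set against the core gene that each resembles, the paralog or copy scored higher in all 6 libraries in 9 of 13 pairs, lower in all 6 in 3 pairs, and higher in 3 of 6 libraries in the pair Rpl3l and Rpl3. Core genes lie low among all regions (OPC medians -2.26 and -1.54), so most regions would score above many of them. The count was not made for other regions, so 9 of 13 has no background here. Rps27 and Rpl29 also serve as the core gene in more than a single pair. The widest gaps were in 3 pairs whose core gene is X-linked. Rpl10, which completes the 60S subunit, scored -1.82, -1.97 and -1.91 in OPC and -1.52, -1.68 and -1.78 in OL. Rpl10l, its intronless paralog on chromosome 12 known from the testis, scored 1.44, 1.53 and 1.55 in OPC and 1.25, 1.08 and 1.15 in OL. No library of either gene crossed 0, and the gap of the means was 3.41 units in OPC and 2.82 in OL. Rpl39 scored -1.83, -1.69 and -2.08 in OPC and -1.48, -1.38 and -1.42 in OL. Rpl39l, its testis-enriched paralog on chromosome 16, scored 1.25 ± 0.14 in OPC, with a lowest library at 1.17 and a highest at 1.41, and 1.33, 1.05 and 1.28 in OL. Here too the genes were apart in every library, by 3.12 units in OPC and 2.64 in OL. The promoters of these pairs are given because core gene and paralog stood on opposite sides of 0. Capitals mark GATC in Rpl10 and CCGGAAG in Rpl39l, and Rpl10l and Rpl39 hold none of the 4 motifs in this window.
Rpl10 promoter, chrX:74270716-74270835, plus strand: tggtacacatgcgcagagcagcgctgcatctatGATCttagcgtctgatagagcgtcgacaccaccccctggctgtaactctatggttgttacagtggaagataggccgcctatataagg
Rpl10l promoter, chr12:66284382-66284501, minus strand: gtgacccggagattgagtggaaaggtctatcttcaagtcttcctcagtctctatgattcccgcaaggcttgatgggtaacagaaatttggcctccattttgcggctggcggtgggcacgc
Rpl39 promoter, chrX:37085203-37085322, minus strand: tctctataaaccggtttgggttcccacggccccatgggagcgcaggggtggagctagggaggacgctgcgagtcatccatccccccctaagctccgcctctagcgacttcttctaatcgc
Rpl39l promoter, chr16:10170128-10170247, plus strand: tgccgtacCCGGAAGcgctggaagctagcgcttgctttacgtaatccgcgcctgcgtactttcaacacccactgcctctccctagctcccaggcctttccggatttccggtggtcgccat

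Rps4l lay 3.68 units above X-linked Rps4x in OPC, at 1.63, 1.56 and 1.55 against -2.27, -1.95 and -2.06. RefSeq lists Rps4l as a transcribed pseudogene inside Tmtc1, whose own region stood at 1.44 in OPC, so the 2 values share DNA. The 4 other regions near Rps4l, Far2, Ergic2, Caprin2 and Ipo8, lay between 0.68 and 1.92, with a median of 1.22. Rpl10l had 1 neighbour within 500 kb, the neuronal adhesion gene Mdga2 at 0.83. In OPC Rpl39l lay above all of its surroundings within 500 kb. Its 9 neighbours had a median of -1.47, and only Atf7ip2, at 0.61, and Grin2a, which encodes an NMDA receptor subunit, at 0.54, were above 0. The nearer of these 2 was 5.99 kb from Rpl39l. The X-linked gene Rpl36a was the reverse case, with Rpl36a itself at -0.80 ± 0.06 in OPC and its autosomal retrocopy Rpl36al, on chromosome 12, at -2.37 ± 0.24. Each library of Rpl36al was below each library of Rpl36a.

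Among the autosomal pairs, Rpl22l1 (-1.33 ± 0.28 in OPC) stood above Rpl22 (-2.28 ± 0.15) and Rps27l (-1.85 ± 0.08) above Rps27 on chromosome 3 (-2.71 ± 0.07). Rpl32l, which lies inside Map7, scored -1.75 ± 0.11 against -2.52 ± 0.32 for Rpl32. Rpl7l1 and Rpl37rt went the other way, at -2.28 ± 0.07 and -2.37 ± 0.06, each under its core gene in every library. Rpl3l, known from heart and skeletal muscle, was at -2.51 ± 0.07 in OPC and -2.02 ± 0.08 in OL, beside Rpl3 at -2.31 ± 0.13 and -2.47 ± 0.07. A region 6.1 kb long was shared by Rpl3l and the core gene Rps2, which scored -2.59 and -2.34, so the 2 are not independent. The table uses the symbol Rpl29 for 3 regions and Rps27 for 2. Rpl29 at its own locus on chromosome 9 scored -2.35, -2.51 and -2.09 in OPC. The Rpl29 region on chromosome 5, a pseudogene in RefSeq, scored -0.66, -0.79 and -1.03, and the 1 on chromosome 1, a pseudogene inside Fhl2 by RefSeq although 5.16 kb from the table's Fhl2 region, scored -0.22, -0.10 and -0.07. The copies were thus above the gene in every OPC library, and the 2 copies did not overlap. In OL the chromosome 1 copy had scores of 0.33, -0.10 and -0.01, on both sides of 0. No source used here says how reads from near-identical copies were placed, so the values of recent copies are uncertain within the copied stretch. That stretch was small: the annotated gene filled 5.28% and 5.71% of the 2 copy regions.

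**Figure D4:**
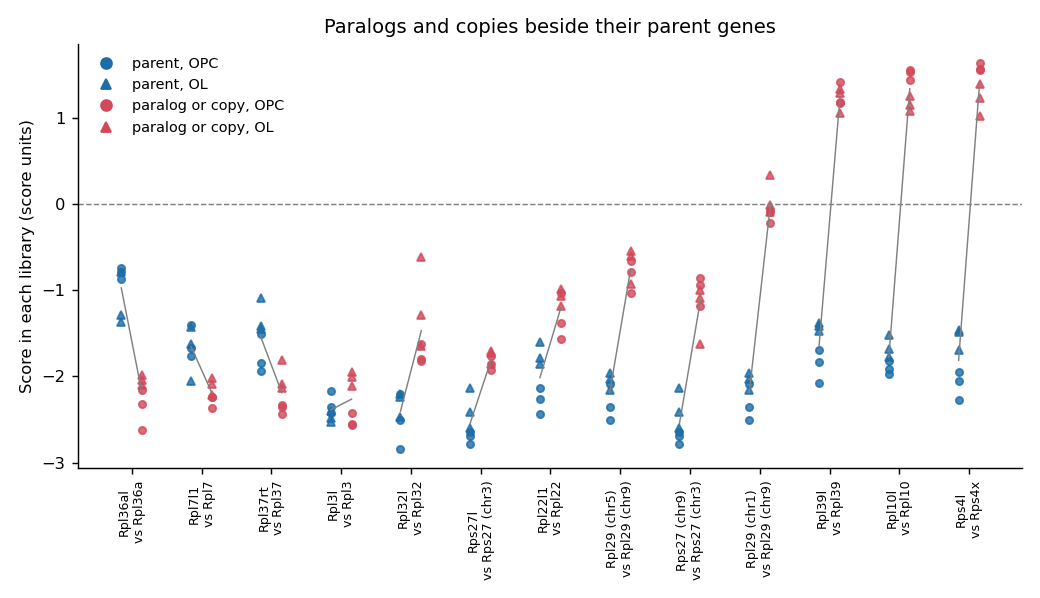
Scores in each of the 6 libraries (vertical axis, score units) for 13 pairs of a core gene (blue) and a paralog or copy (red), with circles for OPC and triangles for OL; grey lines join the means over the 6 libraries. From left to right the pairs run from Rpl36al, whose red points lie under the blue ones, to Rpl39l, Rpl10l and Rps4l, whose red points all lie above 1.

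The second Rps27 region, on chromosome 9, is the retrogene Rps27rt of RefSeq, inside Osbpl10 by that annotation, but 64.6 kb from the region that the table gives for Osbpl10. It scored -0.86, -1.19 and -0.94 in OPC against -2.79, -2.65 and -2.69 for Rps27 on chromosome 3, and -1.63, -1.0 and -1.09 against -2.13, -2.60 and -2.41 in OL. The retrogene was higher in all 6 libraries. The start of both transcripts shares a run of 38 identical bases, beginning at base 2 of Rps27 and base 1 of the retrogene, while 21 of the 100 bases directly before that run were the same at the same distance. The 2 windows show this change from unlike to like sequence. Capitals mark the shared run as far as the windows reach, and Rps27 also holds AAGATGG, left in lower case.
Rps27 (chr3) promoter, chr3:90213629-90213748, minus strand: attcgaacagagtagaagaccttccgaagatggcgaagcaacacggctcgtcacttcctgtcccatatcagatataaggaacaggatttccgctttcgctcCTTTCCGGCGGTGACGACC
Rps27 (chr9) promoter, chr9:114982720-114982839, minus strand: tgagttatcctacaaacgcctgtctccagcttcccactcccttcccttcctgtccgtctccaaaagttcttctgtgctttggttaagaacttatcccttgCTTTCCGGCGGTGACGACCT

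Many ribosomal protein genes host small nucleolar RNAs, which guide the modification of ribosomal RNA, in their introns. The regions of 28 snoRNA genes overlapped those of 23 ribosomal protein genes, 22 of them core, and the scores of host and guest differed by a median of 0.10 and at most 0.35 units in OPC. Such values share most of their DNA and are not separate measurements.

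Between conditions, core ribosomal protein genes more often scored higher in OL than lower, while all stayed below 0. By limma's test of OL against OPC (adjusted p under 0.05), 29 of 90 regions were higher in OL, where 23.0% of all regions were, 4 were lower, where 10.9% of all regions were, and 57 did not pass. The 29 comprised 11 core 40S genes, 16 core 60S genes, Rpl3l and Rpl37rt, and the 4 were Rpl41, Rpl21, Rps4l and Rpl10l. The median difference was 0.22 over the 90 and 0.24 over the core genes, and 0.10 over all regions. All 3 OL libraries lay above all 3 OPC libraries in 39 regions (33.5% of all regions did so) and below them in 5 (15.4% of all). Over all regions, the OL libraries had less spread and a higher median, with SDs of 1.46, 1.54 and 1.53 against 1.57 to 1.59 in OPC. When every library was set to the same mean and SD, the 90 regions split into 13 higher and 7 lower, with a median difference of 0.10, and all regions into 15.5% and 15.1%, with a median of 0.02. Leaving out OPC library 9 gave 17 higher, where 14.6% of all regions were, and leaving out OPC library 8 gave 2 lower, where 8.2% of all were. In the authors' deposited table, an adjusted p under 0.05 was given for 2 of the 90, Rplp0 among them, and for 3.14% of all regions.

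**Figure D5:**
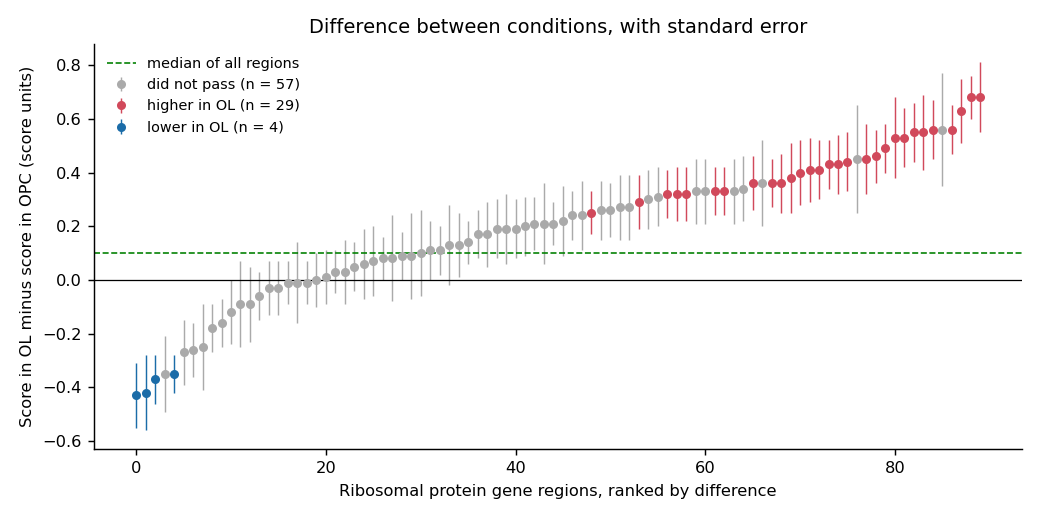
Score in OL minus score in OPC (vertical axis, score units) for the 90 ribosomal protein gene regions, ranked by that difference (horizontal axis); points are differences of means over 3 libraries, bars are standard errors from limma, red is higher in OL, blue lower and grey did not pass, and the green line is the median of all regions. The differences run from -0.43 to 0.68 with 29 red and 4 blue points, and most points lie above the green line at 0.10.

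The share of all regions that were higher in OL varied with their score, so the genes were also set beside other regions of the same mean score, in ranges chosen after the scores were seen. Between -2.5 and -2, 42.5% of 40 ribosomal protein regions were higher in OL and 26.9% of 4874 others. Between -2 and -1.5, 47.4% of 19 were, and 28.3% of 4490 others. Below -2.5 it was 15.4% of 13 against 18.6%, and between -1.5 and -1 it was 9.09% of 11 against 21.8%. Between -1 and 0 it was 0% of 4 against 23.7%, and above 0 it was 0% of 3 against 16.9%. Compared with their own neighbours, 44 of 77 core genes had a larger difference than the neighbours' median, and the medians were 0.24 for the genes and 0.18 for the neighbours. The same count was not made over all regions, so 44 of 77 has no background here.

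Of the 29 higher regions, 12 kept their call when each library was left out in turn, and 10 of these also kept it under 3 scalings of the libraries (same mean and SD, quantile normalization, median centring). Among the 10 were the stalk genes Rplp0 and Rplp1, the 60S genes Rpl22, Rpl27a and Rpl37a, the 40S genes Rps4x and Rps18, and the muscle paralog Rpl3l. Rplp0 scored -2.12, -2.23 and -2.22 in OPC and -1.59, -1.44 and -1.51 in OL. The 2 conditions were far apart relative to their spread, and the difference of 0.68 (SE 0.08) had an adjusted p of 7.59e-04 (limma). In the authors' deposited table its adjusted p was 0.0362. Rplp1 rose by the same 0.68 (SE 0.13, adjusted p = 0.00471), with no overlap. The third stalk gene, Rplp2, scored -2.49, -2.51 and -2.34 in OPC and -1.81, -2.14 and -2.17 in OL. It was higher by 0.41 (adjusted p = 0.0227) without overlap, but lost the call without OPC library 8 or 9 (highest adjusted p 0.0722) and under quantile normalization.

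Among the 40S genes, Rps18 showed the largest rise: its scores were -2.21, -2.38 and -2.44 in OPC and -1.47, -1.92 and -1.76 in OL, a difference of 0.63 (SE 0.12, adjusted p = 0.0056, limma). Every OL library lay above every OPC library. The 4 regions that overlapped Rps18 share DNA with it and were also higher: B3galt4 by 0.71, Pfdn6 by 0.66, Wdr46 by 0.73 and Vps52 by 0.67. Of its 43 other neighbours within 500 kb 21 were higher, where 23.0% of all regions were, and their median difference was 0.31. The rise was thus not particular to this gene. X-linked Rps4x rose by 0.55, from -2.09 ± 0.16 to -1.54 ± 0.12 (adjusted p = 0.00545). Rps29 went from -1.79 ± 0.13 to -1.27 ± 0.33, with OL scores of -0.92, -1.30 and -1.58. Its call (0.53, adjusted p = 0.0265) was lost without OPC library 8 or 10 or OL library 18 or 19, and held under 1 of the 3 scalings. Rps6, the substrate of the S6 kinases, was higher by 0.36 (adjusted p = 0.0324), from -1.54 ± 0.13 to -1.18 ± 0.19, a call lost without OPC library 8 or 9 or OL library 18 or 20 and with the same mean and SD. Rps12 was higher by 0.32 (adjusted p = 0.0337) and lost the call in 5 of the 6 fits that left out a library, all but that without OPC library 10, and under each of the 3 scalings.

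Among the 60S genes, Rpl37a scored -2.41, -2.64 and -2.38 in OPC and -2.09, -1.74 and -1.92 in OL, higher by 0.56 (SE 0.11, adjusted p = 0.00657, limma). Rpl22, an RNA-binding 60S protein, went from -2.28 ± 0.15 to -1.75 ± 0.14, higher by 0.53 (adjusted p = 0.00658). Rpl27a rose by 0.43 from its low OPC level of -2.78 ± 0.03 (adjusted p = 0.00593). In all 3 genes the conditions did not overlap. Rpl11 was higher by 0.55 (adjusted p = 0.0148), with an adjusted p of 0.0504 without OPC library 9. Its partner Rpl5 differed by -0.12 and did not pass (adjusted p = 0.458). Rpl13a, which has a role in translational control in inflammation, and X-linked Rpl39 were higher by 0.36 and 0.44. These 2 kept their calls without any 1 library, but each held under 1 of the 3 scalings only.

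Of the 4 lower regions, Rpl41, which encodes the smallest ribosomal protein, scored -2.13, -2.29 and -2.31 in OPC and -2.40, -2.86 and -2.75 in OL, a fall of 0.43 (difference -0.43, adjusted p = 0.0272, limma). Rpl21 scored -2.38, -1.97 and -2.30 in OPC and -2.64, -2.41 and -2.85 in OL (difference -0.42, adjusted p = 0.0436). Both fell without overlap. Both kept the call under the 3 scalings but lost it in 4 of 6 fits without a library, Rpl41 without OPC library 8 or 9 or OL library 19 or 20 and Rpl21 without OPC library 9 or 10 or OL library 18 or 20. Among the regions above 0, Rps4l moved from 1.58 ± 0.04 to 1.21 ± 0.18 (difference -0.37, adjusted p = 0.0163), a call lost without OPC library 8, and Rpl10l from 1.51 ± 0.06 to 1.16 ± 0.09 (difference -0.35, adjusted p = 0.00812), a call kept in every such fit. Rpl39l, at 1.25 ± 0.14 and 1.22 ± 0.15, did not pass (adjusted p = 0.805). The X-linked gene Rpl36a differed by -0.35 and did not pass (adjusted p = 0.0788), and Rps14 did not differ in its means, at -2.58 in both.

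The other genes of ribosome production were also mostly below 0, and their counts are read against 71.4% of all regions below 0 in OPC and 23.0% higher and 10.9% lower in OL. The OPC medians were -2.33 for translation factors, -2.15 for ribosome biogenesis genes, -1.82 for RNA polymerase I and III genes and -2.49 for the mTOR and TOP control list, beside -2.26 for the core ribosomal protein genes. Of 44 translation factors 43 were below 0 in OPC, and 11 (25%) were higher and 0 lower in OL. The single factor above 0 was Eif3e, a subunit of initiation factor eIF3, at 0.77 ± 0.04 in OPC and 1.22 ± 0.02 in OL. Of 46 ribosome biogenesis genes 44 were below 0, with 20 (43.5%) higher and 0 lower in OL, the 20 including the nucleolar genes Fbl (0.52, adjusted p = 0.0128, limma) and Ddx21 (0.57, adjusted p = 0.0022). Of 24 genes for RNA polymerases I and III 23 were below 0, with 5 (20.8%) higher and 1, Polr3f, lower. All 12 genes of the mTOR and TOP control list were below 0, and 5 (41.7%) were higher in OL, among them Rps6kb2, an S6 kinase (0.72, adjusted p = 6.87e-04). Of 78 mitochondrial ribosomal protein regions 75 were below 0, with a median of -2.26, and 24 (30.8%) were higher and 0 lower. The core cytosolic ribosomal protein genes at -2.26 therefore sat where their mitochondrial counterparts did, and no test of a difference between these lists was made. The core list leaves out paralogs and copies, and with them the median over all 90 cytosolic regions was -2.22. Fau, which encodes a ribosomal protein fused to a ubiquitin-like protein, and the ribosome-associated Rack1 are outside the rule by symbol and scored -2.26 ± 0.11 and -2.43 ± 0.10 in OPC. The 5 pseudogenes that the rule leaves out were mixed, with 2 above 0, Rpl31-ps12 at 1.67 ± 0.08 and Rps19-ps3 at 0.49 ± 0.09, and 3 below.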

How the data were processed

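DamID-seq was measured in 11 libraries, of which the 6 Dam-LMNB1 libraries have their own values. The tools that the submitters' processing notes name are cutadapt 1.9.1 and BWA 0.7.17, with build mm10; the steps from reads to scores were not given in the sources used here. Each deposited score of a region sets a single Dam-LMNB1 library against the pooled Dam of its condition, per the file headers. The deposited p-value and adjusted p-value per region are the authors' own and are quoted only where named. Read depth is unknown, so no counting interval was made.

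Scores were used as deposited, with no filter. limma 3.58.1 (R 4.3.3, variance trend, 1 mean per condition, 3 libraries each) tested each condition against 0 and OL against OPC over all 21534 regions, two-sided, with Benjamini-Hochberg adjustment and a threshold of 0.05; it was tested on simulated data. ± is the SD over 3 libraries. Nothing in the labels says that the libraries came from separate animals, and libraries of a condition share their pooled Dam control, so the spread behind each p-value is that between these libraries alone, may be technical, and leaves out variation of the control. The labels name no batch, and Dam alone is not analysed here.

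The members and gene lists were chosen with earlier results of these data known. By rule, named members were those above 0, the 8 lowest and 8 highest in each condition, up to 10 with the largest rise and fall, and those in listed roles; the 8 genes with neighbours above 0, Rpl19, Rpl31 and Rpl35, the core and copy classes, the score ranges, the width limit and the promoters shown were chosen after values were seen. Alternatives were 3 scalings, no variance trend, a Welch test per region, leaving out each library, and a list without paralogs; the list of core loci was added after seeing the data. Gene loci, promoters and gene types are from RefSeq (GRCm38.p6). Proteins are not shown here, and a few members are not reported by name.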

Additional observations from a re-analysis of the deposited data

How the results depend on the processing

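Over the 90 regions, 86 to 87 were below 0 in OPC and 85 to 86 in OL with the same mean and SD, quantile normalization, either test, no variance trend and each library left out. A list without paralogs had 1 region per symbol (79 regions), and the list of 77 core loci was chosen after seeing the data. In both lists 0 regions were above 0 in OPC or OL by limma, where 25.5% and 25.9% of all regions were. That 0 follows from the lists, which leave out Rpl10l, Rpl39l and Rps4l. Each list had 2 regions lower in OL, where 10.9% of all regions were. Of the 77 core loci 27 (35.1%) were higher in OL, where 23.0% of all regions were. Quantile normalization gave 14 higher and 7 lower (15.5% and 15.2% of all regions) and a median difference of 0.10, and median centring gave 23 and 5 (16.3% and 15.5% of all) and a median of 0.14. A Welch test per region gave 3 higher (Rplp0 and Rpl3l among them) and 0 lower at an adjusted p under 0.05 (2.63% and 1.67% of all regions). Leaving out 1 library gave 17 to 24 higher (14.6% to 19.2% of all) and 2 to 3 lower (7.77% to 11.9%). The difference changed sign in 14 of the 90 with the same mean and SD, 12 under quantile normalization, 7 under median centring and 3 to 8 without 1 library, 0 of them among the called; those of members chosen for naming follow. With the same mean and SD, which gave 13 regions higher and 7 lower, the differences were Rps27l -0.030, Rpl13 -0.12, Rps28 -0.055 and Rps14 -0.15. Under quantile normalization they were -0.050, -0.12, -0.034 and -0.14, and median centring gave Rpl13 -0.050 and Rps14 -0.074. Without 1 library, the OL score of the Rpl29 region on chromosome 1 ran from -0.056 to 0.16, and the differences ran from -0.19 to 0.019 in Rpl5, -0.12 to 0.016 in Rps27a, -0.091 to 0.051 in Rpl39l, -0.065 to 0.025 in Rps23, -0.065 to 0.063 in Rps14 and -0.18 to 0.15 in Rpl24. The scalings and the library left out changed these values by construction; any other cause was not tested. No paired analysis was possible because the conditions share no library number. Scores without read depth give no counting error.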
